A study of Mus musculus with 8 samples.

Results

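Laminins and the proteins that link them into a basement membrane were followed at the level of RNA in a mouse mammary epithelial line. The members are 9 genes chosen by symbol from the 37310 genes of the deposited count table. They are the laminin α chain genes *Lama1*, *Lama3* and *Lama5*, the β chain genes *Lamb1*, *Lamb2* and *Lamb3*, the γ chain gene *Lamc1*, the nidogen gene *Nid1* and the perlecan gene *Hspg2*. All 9 have a row in the table, and 7 passed the filter for low counts and could be tested. A laminin is a cross-shaped secreted trimer of an α, a β and a γ chain that polymerises beneath epithelia and is held there by integrins and dystroglycan. Nidogen and perlecan bridge the laminin network to the collagen IV network. The α3 and β3 chains help to anchor epithelial cells at hemidesmosomes, whereas trimers with the α5 chain are common in mature epithelial basement membranes, that of the mammary gland included.

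The study asked what the long noncoding RNA *Lnc-Nr6a1* does in the response of the mouse mammary line NMuMG to TGF-β. RNA was sequenced from 8 libraries in 4 groups of 2. The groups were control cells without treatment, control cells given 10 ng/ml TGF-β1 for 2 h, cells labelled knockout without treatment, and cells labelled knockout given the same dose for the same time. The knockout was made with Cas9 and guides on both sides of the *Lnc-Nr6a1* start, and edited cells were grown up singly, so a difference between genotypes can also be a difference between clones. How many clones stand behind the libraries is not given in the sources used here. The paper calls the libraries of a group biological replicates, but the labels do not say that they came from separate cultures, and the p-values measure the spread between these samples.

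In total, 7871090 and 7800602 reads were counted in the untreated control libraries and 11210495 and 9895118 in the treated ones. The libraries labelled knockout held 4297832 and 7181737 counts without treatment and 12761749 and 13574397 with it. Levels are given as CPM, the counts of a gene relative to a library size scaled with edgeR's TMM factors. The level of 3 counts, taken as the floor of detection, lay between 0.238 CPM in the deepest and 0.661 CPM in the shallowest library, and covers counting error only. *Lnc-Nr6a1*, listed as Gm13507, had 3 and 14 counts in untreated control cells and 11 and 7 in untreated libraries labelled knockout. With TGF-β, 25 and 35 counts were found in control cells and 0 in each library labelled knockout, at least 12.4-fold lower measured against 3 counts (edgeR's adjusted p = 0.00984, and 0.0517 without replicate 2 of the treated libraries labelled knockout). In the untreated libraries labelled knockout the target, at few counts, was not lower than in control cells (log2 fold change 0.61, SE 0.83, edgeR's adjusted p = 0.785). This goes against the label, but so few counts cannot settle it. Gm13507 lies within *Nr6a1* on the opposite strand, and the strand setting of the counts is not stated. The paper checked the edited clones by PCR and RT-qPCR, which is not restated here. The libraries of both treatments are therefore called libraries labelled knockout, and the direction of a genotype difference is that of the labels.

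The libraries carried *Krt8*, *Krt18* and *Krt19*, keratins of a luminal epithelium. The 6 luminal markers summed to between 5873 and 10928 CPM, with *Krt8* and *Krt18* the highest. Against that, *Epcam* reached at most 2 counts and *Krt7*, another luminal keratin, at most 14 in a library. Of 7 basal or myoepithelial markers, 5 stayed at or under 3 counts in every library, and their sum of 2.87 to 42.1 CPM was almost wholly *Krt14*. *Krt14* rose with TGF-β, in control cells by 2.33 on the log2 scale (SE 0.31, edgeR's adjusted p = 0.00304), and under the knockout label by 3.66 (SE 0.35, edgeR's adjusted p = 6.82e-04). Among luminal markers *Krt8* and *Krt18* were called higher with TGF-β in control cells, by 0.65 (SE 0.17, edgeR's adjusted p = 0.0472) and 0.96 (SE 0.22, edgeR's adjusted p = 0.0295), and *Cdh1* between treated genotypes by 0.61 (SE 0.17, edgeR's adjusted p = 0.0433). These 3 calls were each lost without either untreated library labelled knockout, among other alternatives, with an adjusted p of up to 0.206, 0.180 and 0.236. The part of these markers in the laminin changes was not tested. Markers of fibroblasts, endothelium, leukocytes and adipocytes each summed to at most 5.45 CPM in any library. The treatment reached the cells of both genotypes, since 7 of 8 early TGF-β target genes were called higher in each, beside 4.69% of all tested genes in control cells and 4.25% under the knockout label. Between treated genotypes 3 of these 8, *Snai1*, *Pmepa1* and *Bhlhe40*, were called higher under the knockout label, beside 8.47% of all tested genes. The median log2 fold change of all 8 there was 0.75, beside -0.01 over all tested genes. The part of this difference in that of the members was not tested. *Smad7*, an inhibitor of the pathway, rose by 1.69 (control) and 2.28 (knockout) in log2 units, calls that were lost without an untreated library of the same genotype (edgeR's adjusted p up to 0.151 and 0.0817). In a bulk sample, fewer cells that make a transcript and less of it per cell cannot be told apart.

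A gene was called where edgeR's quasi-likelihood test gave a Benjamini-Hochberg adjusted p below 0.05 over all 13028 tested genes and the absolute log2 fold change was above 0.5. In control cells TGF-β moved the members both ways. *Lama3*, *Lamb1* and *Lamb3* were called higher, 3 of the 7 tested members beside 4.69% of all tested genes, and *Lama5* and *Lamb2* were called lower, 2 of 7 beside 4.47%. In the libraries labelled knockout *Lama3*, *Lamb1* and *Lamb3* were again called higher, 3 of 7 beside 4.25%, and 0 of 7 were called lower beside 2.57% of all tested genes. That 0 from edgeR was also 0 at an unadjusted p below 0.05, and 0 with DESeq2 and limma-voom. *Lama3* passed the filter for low counts only through the treated libraries, so its place among the genes called higher after TGF-β lends no support to these counts. The count in control cells went from 5 to 0 when either untreated control library was left out, and to 3 without treated control replicate 2 or either untreated library labelled knockout. In the libraries labelled knockout it went from 3 to 1 without untreated replicate 1, untreated replicate 2 or treated replicate 2.

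Between the genotypes the calls went upward. Without treatment, *Lamb3* was called higher in the libraries labelled knockout, 1 of 7 members beside 1.03% of all tested genes, and 0 of 7 were lower beside 0.798%. With TGF-β, *Lama5*, *Lamb2* and *Lamb3* were called higher, 3 of 7 beside 8.47%, and 0 of 7 were lower beside 6.57%. Both counts of 0 in edgeR were 0 also at an unadjusted p below 0.05 and with DESeq2 and limma-voom. The count for the treated genotypes was 5 without treated control replicate 1 or without replicate 1 of the treated libraries labelled knockout, 2 without replicate 2 of the latter, and 4 with DESeq2. The 6 tested members other than *Lama3* had a median log2 fold change of 0.94 between the treated genotypes, beside -0.01 over all tested genes, and of 0.29 beside 0.02 between the untreated ones. For TGF-β their median was -0.50 in control cells beside 0.02 over all tested genes, and 0.23 in the libraries labelled knockout beside 0.00. The comparisons share libraries, and their values are set side by side below without a test of their overlap.

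**Figure D1:**
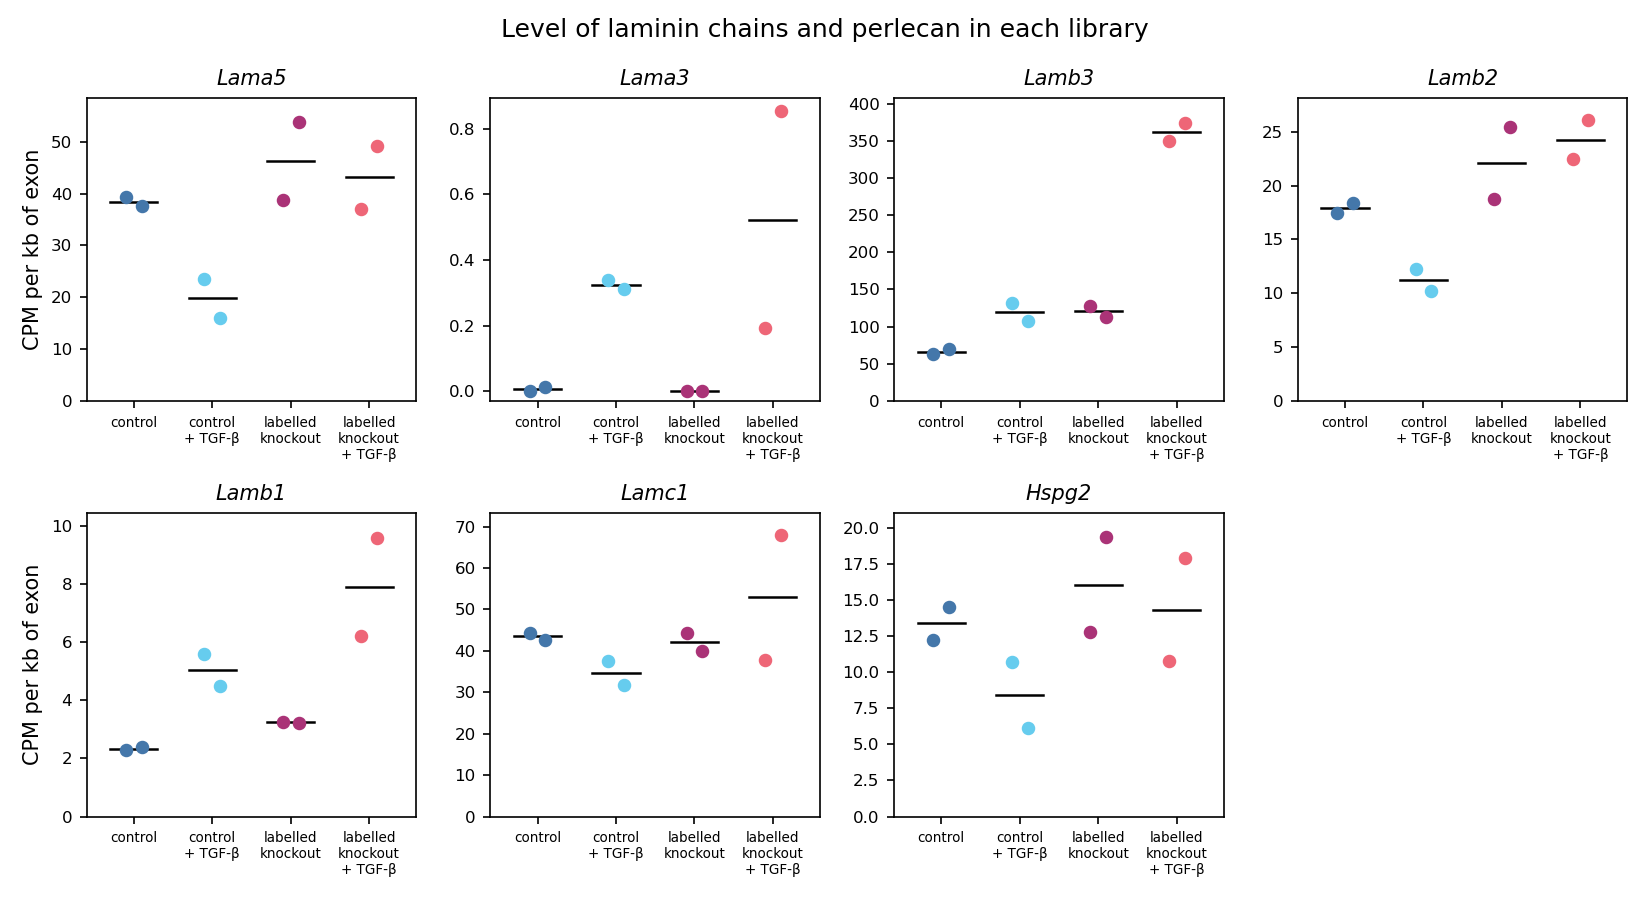
Level of the 7 tested members in each library, in CPM per kilobase of exon on linear axes that differ between panels; each point is a library and each line the mean of the 2 libraries of a group. *Lamb3* lies between 63.1 and 69.9 in untreated control cells and between 350.2 and 373 in treated libraries labelled knockout, while *Lama5* is lowest in treated control cells, at 16.0 and 23.6.

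*Lama5* encodes the α5 chain and carried almost all α chain RNA of these cells. Its level was 448 and 428 CPM in untreated control libraries and 269 and 182 CPM in treated ones. In the libraries labelled knockout it was 443 and 614 CPM without and 423 and 562 CPM with TGF-β. The treated control libraries were thus the low ones, below each of the other 6, while treated and untreated libraries labelled knockout overlapped. In control cells *Lama5* fell by 0.96 on the log2 scale after TGF-β (SE 0.23, edgeR's adjusted p = 0.0329). In the libraries labelled knockout its log2 fold change with TGF-β came to -0.10 (SE 0.23, edgeR's adjusted p = 0.836). Between genotypes it was 0.27 (SE 0.23, edgeR's adjusted p = 0.623) without treatment and 1.13 (SE 0.23, edgeR's adjusted p = 0.0133) with it, the latter a call.

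The fall of *Lama5* in control cells lay close to the threshold. Its call was lost with the replicate block (edgeR's adjusted p = 0.0560), with only the 4 libraries of the comparison (0.0503), and without control replicate 1 (0.182), control replicate 2 (0.120), treated control replicate 2 (0.0860) or an untreated library labelled knockout (0.0515 and 0.0516). Over its alternatives edgeR's, DESeq2's or limma-voom's adjusted p ranged from 4.30e-07 to 0.182, and the log2 fold change from -1.27 to -0.73. The genotype call of *Lama5* with TGF-β was lost with only the 4 treated libraries (0.0630) and without replicate 2 of the treated libraries labelled knockout (edgeR's adjusted p = 0.0737).

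*Lama3*, the α3 chain, was barely detected before treatment. It had 0 and 1 counts in untreated control cells and 38 and 31 with TGF-β, and 0 and 0 counts in untreated libraries labelled knockout and 25 and 113 with TGF-β. All 4 treated libraries stood above all 4 untreated ones, and the treated libraries labelled knockout lay on both sides of the treated control libraries. In control cells the ratio of treated to untreated level was 56.5, with a 95% exact Clopper-Pearson interval from 9.81 to 2265 that covers counting error only (edgeR's adjusted p = 0.0292). Without control replicate 1 the ratio was 28.1 (interval from 4.88 to 1126), and without control replicate 2 the level was at least 9.45-fold higher, measured against 3 counts. In the libraries labelled knockout it was at least 8.33-fold higher, measured against the level of 3 counts in the shallower untreated library (edgeR's adjusted p = 0.0193). The bound fell to 3.08 without treated replicate 2, and was 13.58 without treated replicate 1 and 13.8 without untreated replicate 1. Between the treated genotypes *Lama3* differed by 0.69 on the log2 scale (SE 0.66, edgeR's adjusted p = 0.519), and it turned to -0.74 without replicate 2 of the treated libraries labelled knockout.

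Both calls of *Lama3* were lost with limma-voom (adjusted p = 0.0702 in control cells and 0.0570 in libraries labelled knockout). In edgeR they were lost without either untreated library of the same genotype, at an adjusted p of 0.196 and 0.116 in control cells and of 0.105 and 0.154 in the libraries labelled knockout. Without replicate 2 of the treated libraries labelled knockout edgeR's adjusted p was 0.0580 there. *Lama1*, the α1 chain of early embryonic basement membranes, had 2 counts in a single treated control library and none in the other 7 libraries.

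*Lamb3*, the β3 chain, was the member with the highest level per kilobase of exon in every library. It stood at 275 and 305 CPM in untreated control libraries and at 577 and 470 CPM in treated ones. The libraries labelled knockout held 559 and 492 CPM without and 1529 and 1629 CPM with TGF-β. Untreated control libraries were the lowest and treated libraries labelled knockout the highest, with no overlap, while treated control libraries and untreated libraries labelled knockout shared a range. TGF-β raised *Lamb3* by 0.85 on the log2 scale in control cells (SE 0.15, edgeR's adjusted p = 0.0100) and by 1.59 in the libraries labelled knockout (SE 0.15, edgeR's adjusted p = 6.72e-04). Against control cells the libraries labelled knockout were higher by 0.86 without TGF-β (SE 0.15, edgeR's adjusted p = 0.0216) and by 1.59 with it (SE 0.15, edgeR's adjusted p = 7.59e-04).

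Both *Lamb3* differences of the treated libraries labelled knockout were called in all 15 alternatives, with a log2 fold change between 1.50 and 1.68 for TGF-β and between 1.47 and 1.74 for genotype. The untreated genotype call was lost when any library of that comparison was left out, at an adjusted p of 0.190 and 0.134 without control replicates 1 and 2 and of 0.215 and 0.126 without replicates 1 and 2 of the libraries labelled knockout (edgeR). The rise in control cells was lost without control replicate 1 (edgeR's adjusted p = 0.117) or 2 (0.0530). Over all alternatives the log2 fold change was 0.69 or more for TGF-β in control cells and 0.76 or more for the untreated genotype difference.

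*Lamb1*, the β1 chain, also rose with TGF-β, from a much lower level. The untreated control libraries held 22.7 and 23.7 CPM and the treated ones 55.4 and 44.7 CPM. In the libraries labelled knockout the level was 32.4 and 32.0 CPM without and 61.7 and 95.05 CPM with TGF-β. All treated libraries were above all untreated ones, and within each treatment the libraries labelled knockout were above the control libraries. The increase with TGF-β was 1.11 on the log2 scale in control cells (SE 0.22, edgeR's adjusted p = 0.0181) and 1.28 in the libraries labelled knockout (SE 0.22, edgeR's adjusted p = 0.0102). The genotype differences of 0.47 without (SE 0.23, edgeR's adjusted p = 0.368) and 0.65 with TGF-β (SE 0.21, edgeR's adjusted p = 0.0693) were not called.

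The *Lamb1* calls were lost in edgeR without control replicate 1 (adjusted p = 0.153) or 2 (0.0977) in control cells. Under the knockout label they were lost without untreated replicate 1 (0.0968) or 2 (0.107) or treated replicate 2 (0.0579). The treated genotype difference of *Lamb1* passed instead with no filter on low counts (0.0110), without treated control replicate 1 (0.0482) or without replicate 1 of the treated libraries labelled knockout (edgeR's adjusted p = 0.0220). Its range over the 15 alternatives was 0.31 to 0.93.

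*Lamb2*, the β2 chain of the neuromuscular junction and the glomerulus, resembled *Lama5* in its pattern rather than the other β chains. It was at 98.1 and 103 CPM in untreated control libraries and at 68.8 and 57.5 CPM in treated ones, and at 106 and 143 CPM in untreated and 126 and 146 CPM in treated libraries labelled knockout. The treated control libraries were again the lowest, and the libraries labelled knockout overlapped between treatments. *Lamb2* fell by 0.67 on the log2 scale with TGF-β in control cells (SE 0.18, edgeR's adjusted p = 0.0490) and had a log2 fold change of 0.13 in the libraries labelled knockout (SE 0.18, edgeR's adjusted p = 0.720). The genotypes differed by 0.31 without treatment (SE 0.18, edgeR's adjusted p = 0.475) and by 1.11 with it (SE 0.18, edgeR's adjusted p = 0.00618), and the latter was called in all 15 alternatives.

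The call of the *Lamb2* fall in control cells held in only 7 of 15 alternatives. It was lost with limma-voom (adjusted p = 0.0515), the replicate block (edgeR's adjusted p = 0.0716) and the 4 libraries of the comparison alone (0.0817). It was also lost in edgeR without control replicates 1 and 2 (0.197 and 0.192), without treated control replicate 2 (0.123) and without either untreated library labelled knockout (0.0598 and 0.0602). The log2 fold change stayed between -0.81 and -0.57.

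*Lamc1* encodes the γ1 chain, shared by most laminin trimers, and was called in none of the 4 comparisons. The control libraries held 367 and 353 CPM without and 311 and 262 CPM with TGF-β. The libraries labelled knockout held 367 and 330 CPM without and 313 and 562 CPM with it. Treated control libraries lay below untreated ones, but the treated libraries labelled knockout, 1 of them the lowest and the other the highest of their genotype, enclosed the untreated. The log2 fold change of TGF-β was -0.33 in control cells (SE 0.24, edgeR's adjusted p = 0.407) and 0.33 in the libraries labelled knockout (SE 0.24, edgeR's adjusted p = 0.456), and the latter turned to -0.15 without treated replicate 2. Between genotypes it was -0.05 (SE 0.24, edgeR's adjusted p = 0.952) without and 0.61 (SE 0.24, edgeR's adjusted p = 0.113) with TGF-β. The treated difference became a call without replicate 1 of the treated libraries labelled knockout (edgeR's adjusted p = 0.0123) and with no filter on low counts (0.00190), within a range of 0.0019 to 0.739 over its alternatives.

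*Hspg2* encodes perlecan, the heparan sulfate proteoglycan, and was called in none of the 4 comparisons. Its level was 175 and 209 CPM in untreated and 154 and 87.8 CPM in treated control libraries, and 183 and 278 CPM in untreated and 155 and 257 CPM in treated libraries labelled knockout. The treated control libraries were the lowest here too, 1 of them only just. With TGF-β the log2 fold change was -0.67 in control cells (SE 0.32, edgeR's adjusted p = 0.211) and -0.17 in the libraries labelled knockout (SE 0.31, edgeR's adjusted p = 0.804). The genotype difference was 0.27 (SE 0.32, edgeR's adjusted p = 0.746) without and 0.77 (SE 0.32, edgeR's adjusted p = 0.132) with TGF-β. The treated difference passed with DESeq2 (adjusted p = 0.0488), and in edgeR with no filter on low counts (adjusted p = 1.95e-04) and without treated control replicate 1 (0.0293), while its adjusted p reached 0.578 in another alternative. The fall with TGF-β in control cells passed with no filter on low counts (edgeR's adjusted p = 0.00332) and otherwise not, with an adjusted p of up to 0.523. *Nid1*, nidogen, had at most 5 counts in a library and 9 in all, and was not tested.

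Whether the response to TGF-β differed between genotypes was tested as an interaction. edgeR called 0 of 13028 genes (0%), with 1134 at an unadjusted p below 0.05 (8.70%), while DESeq2 called 30 and limma-voom 0. The difference was above 0 for the 6 tested members other than *Lama3*, with a median of 0.70 on the log2 scale, beside 0.00 over all tested genes. It was 0.74 for *Lamb3* (SE 0.21, edgeR's adjusted p = 0.445), 0.80 for *Lamb2* (SE 0.25, edgeR's adjusted p = 0.484) and 0.85 for *Lama5* (SE 0.32, edgeR's adjusted p = 0.512). None of the members passed in edgeR, DESeq2 or limma-voom, and 3 of 7 had an unadjusted p below 0.05 in edgeR, 4 in DESeq2 and 3 in limma-voom. Over all tested genes the share below 0.05 was 8.70% in edgeR, 6.96% in DESeq2 and 8.44% in limma-voom. With no filter on low counts, *Lama5* (edgeR's adjusted p = 0.0127) and *Lamb3* (0.0309) passed. The fall of *Lama5* and *Lamb2* was therefore called in control cells and not in the libraries labelled knockout, but the test across all genes did not call the difference.

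**Figure D2:**
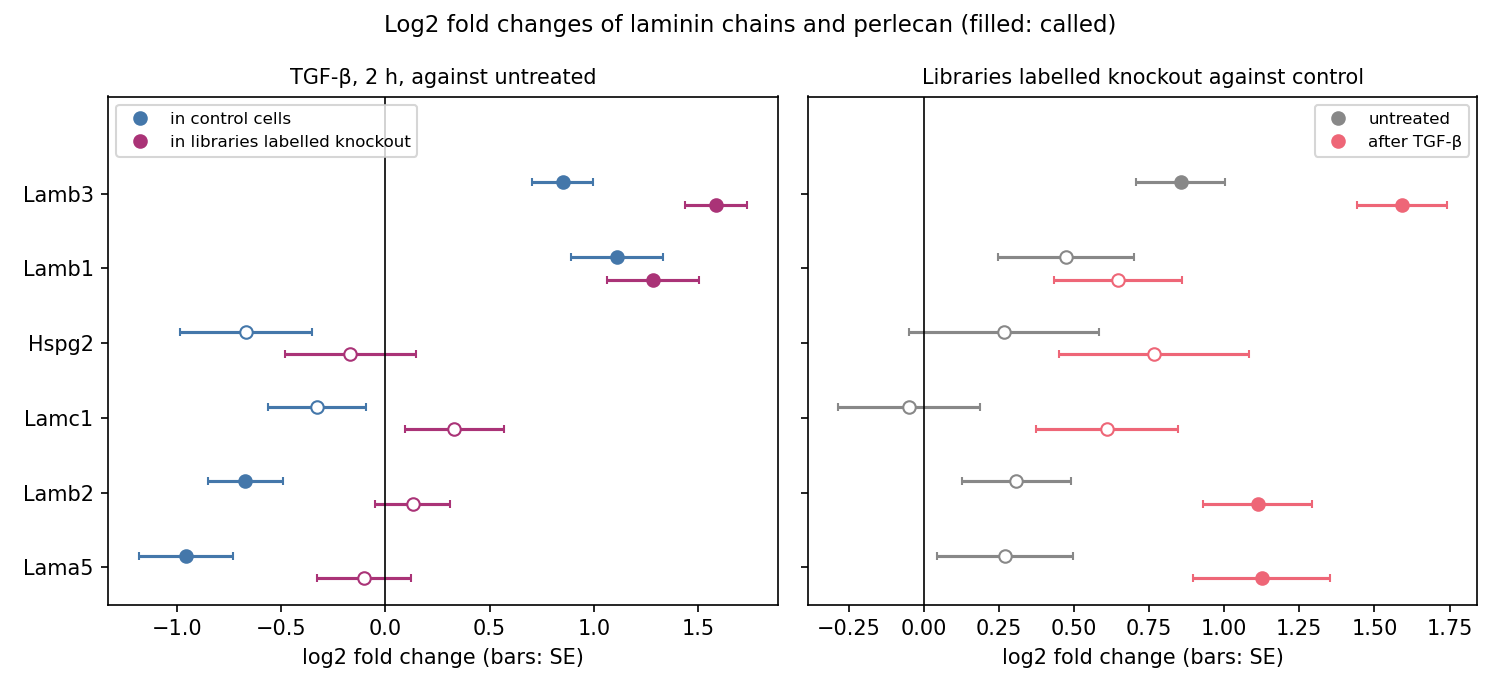
Log2 fold changes of 6 members (horizontal axis, bars are standard errors) for TGF-β within each genotype on the left and for genotype within each treatment on the right; filled points were called, open points were not. In the left panel *Lama5* and *Lamb2* are at -0.96 and -0.67 in control cells and at -0.10 and 0.13 in the libraries labelled knockout, whereas *Lamb1* (1.11 and 1.28) and *Lamb3* (0.85 and 1.59) are above 0 in both.

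Replicates of the treated groups differed in a way that many members shared. In treated control cells all 7 tested members were higher in replicate 1 than in replicate 2, by a median of 0.30 in log2 CPM, and in treated libraries labelled knockout all 7 were lower in replicate 1, with a median difference of -0.62. With its sign, the replicate difference over all tested genes had a median of 0.013 in treated control cells and 0.0046 in treated libraries labelled knockout. Without sign, its size had a median of 0.33 and 0.22 in these groups, and of 0.21 and 0.20 in untreated control libraries and untreated libraries labelled knockout. Members are long and rich in G and C, with a median exon length of 9.52 kb beside 3.34 kb for all tested genes and a median GC content of 53.8% beside 50.3%. The 590 tested genes of at least 5000 bases of exon and at least 55% GC had a median replicate difference of 0.34 in treated control cells and of -0.21 in treated libraries labelled knockout. The part of length and base composition in the differences of the members was not tested. *Lama5*, *Lamb2*, *Lamb3* and *Hspg2* are the 4 members at or above 55% GC.

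The order of the members was read on CPM per kilobase of exon, the scale on which genes can be set side by side. In untreated control cells the level per kilobase was 63.1 and 69.9 for *Lamb3*, 44.4 and 42.6 for *Lamc1*, 39.3 and 37.6 for *Lama5*, 17.4 and 18.3 for *Lamb2*, 12.2 and 14.6 for *Hspg2* and 2.29 and 2.39 for *Lamb1*. No neighbours in this order overlapped. With TGF-β the control libraries kept the order of group means, but the ranges of *Lamb2* (12.2 and 10.2) and *Hspg2* (10.7 and 6.12) touched. In untreated libraries labelled knockout *Lama5* (38.8 and 53.8) and *Lamc1* (44.4 and 39.8) overlapped and could not be ordered, nor could *Lamb2* (18.8 and 25.4) and *Hspg2* (12.8 and 19.4). With TGF-β *Lama5* (37.1 and 49.3) and *Lamc1* (37.9 and 68.0) overlapped again. *Lamb3* at 350.2 and 373 per kilobase then stood far above every other member. If the longest transcript was taken as the length, *Lamb1* and *Hspg2* changed places in treated control cells, at 8.65 and 8.52 CPM per kilobase, and the order was otherwise as with all exons.

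Among α and β chains, the shares of the level per kilobase shifted with TGF-β. *Lama5* made up between 97.9% and 100% of α chain RNA in each library, and *Lama3* rose from at most 0.0308% in untreated libraries to between 0.519% and 1.91% in treated ones. Among β chains *Lamb3* went from 76.2% and 77.1% in untreated to 88.1% and 88.0% in treated control cells, and from 85.3% and 79.7% to 92.4% and 91.3% in the libraries labelled knockout. The share of *Lamb2* fell in step, from 21.0% and 20.2% to 8.15% and 8.35% in control cells and from 12.5% and 18.0% to 5.93% and 6.37% in the libraries labelled knockout. In both genotypes the treated and untreated shares of *Lamb3* and *Lamb2* did not overlap. Shares of a class are tied to each other and were not tested.

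Among laminin chain genes outside the members, *Lama2* had no counts, *Lama4* at most 4 and *Lamc3* at most 19 in a library.

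Members lie on 8 chromosomes, and none shares exon bases with another annotated gene. In the NCBIM37 annotation *Lamb3* (ENSMUSG00000026639.11) is at chr1:195128151-195170072 on the plus strand, *Lamb2* (ENSMUSG00000052911.4) at chr9:108382193-108392861 on the plus strand and *Lama5* (ENSMUSG00000015647.8) at chr2:179911078-179960564 on the minus strand. These 3 members had the genotype calls after TGF-β. Upstream sequence was taken from a set of RefSeq starts on GRCm38.p6. In the set used, 6 of the 9 members were matched, and *Lama1*, *Lama3* and *Lamc1* were not. The stretch from 250 to 51 bases before the start was searched on both strands for CAGAC, the core of the SMAD binding element, and for TGANTCA, the AP-1 element, which can share the bases CA. Of 32817 such stretches upstream of all genes, 35.8% held CAGAC and 5.58% TGANTCA. *Lamb3* and *Lamb2* each had 2 matches to CAGAC, *Lama5* and *Lamb1* 1 each and *Hspg2* and *Nid1* 0, and TGANTCA matched in 0 of these 6, so that no matches overlapped. The stretches of *Lama5*, *Lamb1* and *Nid1* also overlap another RefSeq gene. The sequences of the 3 members called between treated genotypes are shown 5′ to 3′ on the strand of the gene, at chr1:193301744-193301943 (plus), chr9:108479612-108479811 (plus) and chr2:180225910-180226109 (minus), with CAGAC or its reverse complement GTCTG in capitals.
*Lamb3*: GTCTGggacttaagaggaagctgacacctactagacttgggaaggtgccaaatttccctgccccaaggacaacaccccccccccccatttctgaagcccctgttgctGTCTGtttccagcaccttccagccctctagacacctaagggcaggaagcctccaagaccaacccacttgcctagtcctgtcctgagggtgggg
*Lamb2*: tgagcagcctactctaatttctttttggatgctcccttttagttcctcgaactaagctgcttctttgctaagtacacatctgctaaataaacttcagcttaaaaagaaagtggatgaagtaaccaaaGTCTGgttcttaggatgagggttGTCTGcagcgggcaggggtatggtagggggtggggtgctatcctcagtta
*Lama5*: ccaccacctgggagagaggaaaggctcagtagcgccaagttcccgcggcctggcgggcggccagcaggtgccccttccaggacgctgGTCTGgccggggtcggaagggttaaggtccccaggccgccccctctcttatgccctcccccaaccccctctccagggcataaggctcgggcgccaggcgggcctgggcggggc
A match describes the letters and is not a binding site.

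Of 10 laminin receptor genes, all tested, 2 were called higher with TGF-β in each genotype, beside 4.69% of all tested genes in control cells and 4.25% under the knockout label. They were *Itga6* and *Itgb1*, integrin chains of the laminin receptor α6β1, called by 0.59 (SE 0.13) and 0.72 (SE 0.14) on the log2 scale for control cells and for those labelled knockout by 0.87 (SE 0.13) and 0.86 (SE 0.14). Between treated genotypes *Itga3*, *Itgb4* and *Bcam*, a receptor of the α5 chain, were called higher in the libraries labelled knockout, by 0.74 (SE 0.19), 1.48 (SE 0.25) and 1.99 (SE 0.26), 3 of 10 beside 8.47% of all tested genes. *Bcam* was also called without TGF-β, where the control libraries had 4.10 and 4.76 CPM and those labelled knockout 13.7 and 17.9 CPM. The median log2 fold change of the list was 0.26 between treated genotypes, beside -0.01 over all tested genes. Of the hemidesmosome genes, *Plec*, the plaque protein plectin, was called higher by 1.36 between treated genotypes (SE 0.29, edgeR's adjusted p = 0.0152), *Dst* was not called, and *Col17a1* was near 0. Exons of *Itgb4*, *Bcam*, *Plec* and *Dst* overlap other genes, and the strand setting of the counts is not stated. Calls were lost without an untreated library of the comparison for *Bcam* without TGF-β (edgeR's adjusted p up to 0.128), *Itga6* (up to 0.168 in control cells and 0.0949 under the knockout label) and *Itgb1* (up to 0.170 and 0.105). Those of *Itga3* and *Plec* were lost without replicate 2 of the treated libraries labelled knockout and with only the 4 treated libraries, and that of *Itga3* also without treated control replicate 2 or either untreated control library, with an adjusted p of up to 0.170 and 0.0860 over all alternatives. The call of *Itgb4* was lost with only the 4 treated libraries (0.0541).

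Genes whose log2 CPM followed a member most closely over the 8 libraries were sought among 13027 other tested genes. For *Lamc1* they were *Mef2d*, *Nol12* and *Zkscan17*, with Pearson correlations of 0.944, 0.938 and 0.928. For *Lamb3* they were *Sfxn3*, *Nfatc1* and *Spred2*, with 0.994, 0.989 and 0.988. The libraries fall into 4 groups and differ in depth, and so many genes were searched that high values are bound to occur, so the correlations describe these libraries only.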

How the data were processed

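RNA-seq of 8 NMuMG libraries was used, 2 in each of 4 groups. As deposited by the authors, the values are raw read counts for each gene. The paper's methods name subjunc, duplicate removal with samtools 0.1.19 and DESeq2, the labels name HISAT2, limma and mm10, and neither names the counter or its strand setting. All 37310 identifiers matched GENCODE vM1 on NCBIM37. With R 4.3.3, edgeR 4.0.16 (TMM, filterByExpr, quasi-likelihood test) was fitted to the 4 groups over all 8 libraries, with 4 residual degrees of freedom and a biological coefficient of variation of 0.180. A call required both thresholds given in the report, or for the interaction the adjusted p alone. The counts of all 13028 tested genes gave the adjustment, and totals and floors of detection stand in the report. The fit was tested on simulated data. Level per kilobase used the union of exons. Log2 CPM used a prior count of 2.

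Alternatives were DESeq2 1.42.0, limma-voom (limma 3.58.1), RLE factors, the filter on low counts dropped or replaced by a mean count of 10, a block for replicate number, fits to the 4 libraries of a comparison alone, leaving out each library and the longest transcript as length. Named genes were all members, the target, and from each list genes called in a comparison with up to 2 more of the highest mean level. The 3 genes most correlated with *Lamc1* and with *Lamb3* were named too. Some genes of the lists, called ones included, are not described. The members and lists were chosen with earlier results of these data known.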

Additional observations from a re-analysis of the deposited data

Results flagged for a closer look

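In 7 genes of the lists, all outside the members, both libraries of 1 group moved one way under a contrast and both of the other group the opposite way. The difference itself, tested as the interaction, was called for none of them. With TGF-β, control libraries were lower and libraries labelled knockout higher for *Itgb4*, an integrin chain of hemidesmosomes, whose interaction was 0.90 on the log2 scale (edgeR's adjusted p = 0.518). The same held for *Ndst1*, a heparan sulfate sulfotransferase, at 0.88 (edgeR's adjusted p = 0.430), for the lysyl hydroxylases *Plod1* at 0.80 (edgeR's adjusted p = 0.474) and *Plod3* at 0.31 (edgeR's adjusted p = 0.710), and for the protease *Htra1* at 0.47 (edgeR's adjusted p = 0.559). Exons of *Itgb4* and *Plod3* share 537 and 529 bases with genes on the opposite strand, and the strand setting of the counts is not stated. Against control cells, libraries labelled knockout were lower without and higher with TGF-β for *B4gat1*, a dystroglycan glycosyltransferase, at 0.26 (edgeR's adjusted p = 0.759), and for *Smoc2*, a secreted basement membrane protein, at 3.12 (edgeR's adjusted p = 0.545). The untreated values of *B4gat1* nearly met, at 56.215 and 56.220 CPM in libraries labelled knockout and 59.828 and 56.270 CPM in control libraries. Its log2 fold change there was -0.05 (SE 0.14, edgeR's adjusted p = 0.916). *Smoc2* was near the floor of detection in several libraries, with 0 and 0.665 CPM in untreated libraries labelled knockout. Groups of 2 are too small for a test of outlying libraries.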

How the results depend on the processing

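The 12 called results of members kept their direction in all 180 alternatives tried over them and their call in 145. Calls of *Lamb2* and *Lamb3* between treated genotypes and of *Lamb3* with TGF-β under the knockout label held in all 15. Of 52 called results of genes outside the members for which alternatives were run, 0 turned and 12 were called in every alternative. Where a group is left with 1 library, it is assumed to vary like the others. The cause of the other differences between settings was not tested.

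Between untreated genotypes, 238 genes were called in edgeR, 428 with DESeq2, 137 with limma-voom, 756 with no filter on low counts, 150 with the replicate block and 797 with only the 4 libraries of the comparison. Between treated genotypes, 402 in place of 1959 were called with only the 4 libraries, and 6 members with no filter. With TGF-β in control cells 2021 in place of 1194 genes were called with no filter and 483 with only the 4 libraries, and 3 in place of 5 members with limma-voom, the replicate block or only the 4 libraries. Under the knockout label 1832 in place of 889 genes were called with no filter. For the interaction, DESeq2 called 30 genes, and 211 genes and 2 members passed with no filter. With the longest transcript as length, 7 of 9 members kept their rank in treated control cells.

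Leaving out each library in turn gave 41 to 393 genes and 0 to 1 members between untreated genotypes, 486 to 2788 genes and 2 to 5 members between treated ones, 139 to 1479 genes and 0 to 5 members with TGF-β in control cells, 136 to 1381 genes and 1 to 3 members with it under the knockout label, and 0 to 6 genes for the interaction. Uncalled log2 values that changed sign ranged, between untreated genotypes, from -0.067 to 0.53 for *Hspg2* and from -0.13 to 0.028 for *Lamc1*. Between treated genotypes they ranged from -0.74 to 1.39 for *Lama3*. With TGF-β under the knockout label they ranged from -0.57 to 0.17 for *Hspg2*, -0.32 to 0.15 for *Lama5*, -0.068 to 0.37 for *Lamb2* and -0.15 to 0.70 for *Lamc1*. The interaction ranged from -0.15 to 0.48 for *Lamb1*.

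Libraries of different groups share only a replicate number. Over 13028 genes, the deviations of same-numbered libraries correlated at 0.297 between the control groups, 0.0980 between untreated genotypes, -0.00915 under the knockout label and -0.473 between treated genotypes. With the block 1490 genes and 3 members were called between treated genotypes, and after exchanging the replicate numbers within the treated knockout label, a choice made after seeing the data, 2809 genes and 5 members. Depth limits *Lama1* and *Nid1*, which could not be tested, and *Lama3* in untreated cells.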

Other observations

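Of 22 other basement membrane genes, 13 were tested, and between treated genotypes 5 were called higher in the libraries labelled knockout beside 8.47% of all tested genes, with a median log2 fold change of 0.66 beside -0.01 over all tested genes. They were *Agrn*, agrin, by 1.01, the collagen genes *Col15a1* by 1.82 and *Col18a1* by 1.10, *Sparc* by 0.54 and *Fbln2*, fibulin 2, by 0.94. *Col15a1* was called in all 4 comparisons and in each alternative, by 2.45 between untreated genotypes and with TGF-β by 2.25 in control cells and 1.62 under the knockout label. *Col7a1*, the anchoring fibril collagen, was called with TGF-β by 1.34 and 2.11, and *Fbln2* by 0.68 and 1.11. The highest genes without a call were *Col4a1* and *Tinagl1*, with a mean of 307 and 216 CPM. Between treated genotypes the calls of *Agrn* (edgeR's adjusted p up to 0.134), *Col18a1* (up to 0.109) and *Sparc* (up to 0.119) were lost without replicate 2 of the treated libraries labelled knockout, among other alternatives. Those with TGF-β were lost without control replicate 1 or 2 for *Col7a1* (up to 0.192) and *Fbln2* (up to 0.177), and under the knockout label without untreated replicate 1 (up to 0.105 and 0.0562).

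Of 13 genes for collagen IV folding and crosslinking, 10 were tested. Between treated genotypes *Loxl4*, a lysyl oxidase, was called higher by 1.58, *Pxdn*, peroxidasin, by 1.00 and *Plod1* by 1.13, while *P4ha1* and *Plod2* were lower, with log2 fold changes of -0.86 and -0.71. These were 3 of 10 higher beside 8.47% of all tested genes, and 2 of 10 lower beside 6.57%. With TGF-β, *Plod2* was called higher in control cells, 1 of 10 beside 4.69%, a call lost in 4 of 15 alternatives. Under the knockout label *Pxdn*, *Plod2* and *Serpinh1* were called higher with TGF-β, 3 of 10 beside 4.25%. Those calls were lost in 3, 7 and 3 of 15 alternatives. *Loxl4* was also called higher without TGF-β, by 1.21 (edgeR's adjusted p = 0.0208), a call lost in 3 of 15 alternatives. Of 11 heparan sulfate genes, 9 were tested, and *Sulf2*, which removes sulfate from perlecan and other proteoglycans, was called higher by 2.64 and *Ndst1* by 0.87 between treated genotypes. That was 2 of 9, beside 8.47% of all tested genes. *Sulf2* was also called higher without TGF-β, by 1.41 (edgeR's adjusted p = 0.0344), a call lost in 4 of 15 alternatives. *Ext1*, a heparan sulfate polymerase, was called with TGF-β by 1.15 and 1.10. Of 9 dystroglycan glycosylation genes, 8 were in the table and 7 tested, and *Pomt1* had a log2 fold change of -1.12 with TGF-β in control cells and 0.81 between treated genotypes. Of 11 proteases, 7 were tested, and *Plau*, urokinase, was called with TGF-β by 2.03 and 2.25, and *Mmp14* and *Htra1* between treated genotypes by 0.68 and 1.15. With TGF-β 1 of 7 was called higher in control cells, beside 4.69% of all tested genes. Under the knockout label *Bmp1*, *Mmp14* and *Plau* were called higher, 3 of 7 beside 4.25%. Those calls of *Bmp1* and *Mmp14* were lost in 6 and 4 of 15 alternatives. Between treated genotypes 2 of 7 were called higher, beside 8.47%. Without replicate 2 of the treated libraries labelled knockout the genotype calls of *P4ha1*, *Plod2*, *Pomt1* and *Mmp14* were lost, and over all alternatives the adjusted p reached 0.0866, 0.119, 0.0960 and 0.0809. Those of *Ndst1* (0.0582) and *Plod1* (0.0505) were lost with only the 4 treated libraries. The TGF-β calls in control cells were lost without control replicate 1 for *Ext1* (0.0801), *Pomt1* (0.0684) and *Plau* (up to 0.131), and those under the knockout label without untreated replicate 1 or 2 for *Ext1* (up to 0.0931) and *Plau* (up to 0.0954). Exons of *Col4a1*, *Col7a1*, *Col15a1*, *Pomt1* and *Sulf2* share bases with another gene, 154 of them in *Sulf2* and 36 or fewer in the others.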
